A study of Homo sapiens with 6 samples.

Results

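The Janus kinases (JAKs) and the signal transducers and activators of transcription (STATs) form the shortest route from a cytokine receptor to the nucleus. Receptor chains have no kinase of their own and hold a JAK at their inner side. When the cytokine brings the chains together the JAKs phosphorylate each other and the receptor, STATs dock, are phosphorylated, pair up and enter the nucleus as transcription factors. In T cells this route carries the signals of interleukins and interferons for growth, survival and helper-cell fate, and in T-cell lymphomas it is a recurrent site of activating lesions. The members described here were the rows of the count table named JAK1, JAK2, JAK3, STAT2, STAT3, STAT4, STAT5A, STAT5B and STAT6, which are 9 of 61541 genes (3 kinases and 6 STATs). All 9 passed the filter on low counts, which left 17678 genes for testing.

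The libraries were bulk RNA-seq of H9, an established human cutaneous T-cell lymphoma line labelled wild type, so that all values come from 1 cell line. In one group the cells received the vehicle DMSO (3 libraries) and in the other AZD4573, a selective inhibitor of the transcription elongation kinase CDK9 (3 libraries). The treated samples are labelled 4 h, the figure legends of the study give 50 nM for 4 h, its discussion gives 6 h, and the time of the DMSO samples is not in their labels. Nothing in the labels says whether the libraries came from separate cultures, so p-values measure only the spread between these libraries, which may be technical. Labels name poly(A) selection where the supplemental methods name rRNA depletion.

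Total counts ran from 70367303 to 76571157 with DMSO and from 52101868 to 63795185 with AZD4573. A count of 0 in the deepest library allows up to 0.0392 CPM (counts scaled by the library total, with a floor of 3 counts), for counting error only. The T-cell label was checked against 13 markers, of which 12 were tested, 0 were called lower and 4 higher, with a summed level of 1450 to 1520 CPM (TMM-scaled) with DMSO and 1970 to 2000 CPM with AZD4573. Of all genes tested, 23.7% were called lower and 22.7% higher. The CD3 chains CD3D, CD3E and CD3G had 143, 154 and 135 CPM with DMSO, CD4 had 3.83 CPM, and CD2 had at most 13 counts in a library. Of the B-cell markers, CD79A was at 57.8 CPM with DMSO and 93.6 CPM with AZD4573 and CD79B at 5.66 and 3.46 CPM, while MS4A1 and PAX5 had at most 21 and 3 counts. Myeloid markers (5 genes, FCGR3A at 0) summed to 0.268 to 0.492 and 0.472 to 0.649 CPM, and whether other cells had a part in any result was not tested. The summed level of 5 NK-cell markers (NCR1 at 0) stayed between 0.0702 and 0.314 CPM over all libraries, and the erythroid marker HBB had 0 counts in every library. The mitochondrial genome, whose transcription does not involve RNA polymerase II, encodes 13 mRNAs, and their counts made up 3.04% to 3.22% of the DMSO libraries and 4.67% to 4.98% of the AZD4573 libraries. When libraries were scaled to these mRNAs, the median over tested genes of the log2 fold change went from 0.03 to -0.71, and the members are therefore given under both scalings.

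STAT5A and STAT5B are close paralogues on chromosome 17 of GRCh38, and how far reads tell them apart bears on their values. Their canonical transcripts in GENCODE release 44 share a run of 429 coding bases without a single difference, within exons 6 to 9 of each gene. In STAT5A (plus strand) the run lies between positions 42299764 and 42301277, and in STAT5B (minus strand) between 42218328 and 42219829. The 3′ edge of the run is printed here, read 5′ to 3′ on the coding strand, as 60 bases before and 60 bases from the first difference. All 120 bases are coding and come from exons 8 and 9, and the capital letter marks the only base that differs.
STAT5A: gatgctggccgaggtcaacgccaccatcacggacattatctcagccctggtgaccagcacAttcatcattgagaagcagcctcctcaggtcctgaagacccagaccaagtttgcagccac
STAT5B: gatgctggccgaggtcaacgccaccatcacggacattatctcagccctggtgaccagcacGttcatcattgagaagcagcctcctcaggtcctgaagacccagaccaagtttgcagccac

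Reads of the sequenced length that fall inside the run match both genes. Such read-length words made up 279 of 3620 (7.71%) in the STAT5A transcript and 279 of 4929 (5.66%) in that of STAT5B. RSEM divides shared reads between the genes by estimate. Annotated exons of the 2 genes also overlap on opposite strands over 415 bases, which counting without strand does not separate. Exons of STAT6 overlap those of LRP1 and NAB2 over 128 bases (1.75% of its exonic bases), those of STAT4 overlap antisense transcripts over 261 bases (5.67%), and those of JAK1 overlap LINC01359 and RAVER2 over 657 bases (4.99%). The canonical transcripts of JAK1, JAK2, JAK3, STAT2, STAT3 and STAT6 share no such word with another gene, and that of STAT4 shares 0.166% of its words with an antisense transcript (ENSG00000288064) that had at most 5 counts in a library.

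Upon AZD4573 treatment STAT4 and JAK2 were lower, JAK1, STAT2, STAT3, STAT5B and STAT6 were higher under TMM scaling (and lower under mitochondrial scaling), and JAK3 and STAT5A did not pass the test. With a fold change of at least 1.5 and an adjusted p under 0.05 (quasi-likelihood test of edgeR, Benjamini-Hochberg adjusted over the 17678 genes), 1 of the 9 members was called lower and 0 were called higher, where 23.7% of all genes were called lower and 22.7% higher. By adjusted p alone, 2 members were lower (37.4% of all genes) and 5 higher (37.3% of all genes). The groups did not overlap for 8 members, 2 of them lower and 6 higher, beside 77.8% of all genes. The median log2 fold change was 0.19 over the 9 members and 0.03 over all genes tested. In bulk libraries, fewer cells of a type and less RNA per cell cannot be told apart.

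**Figure D1:**
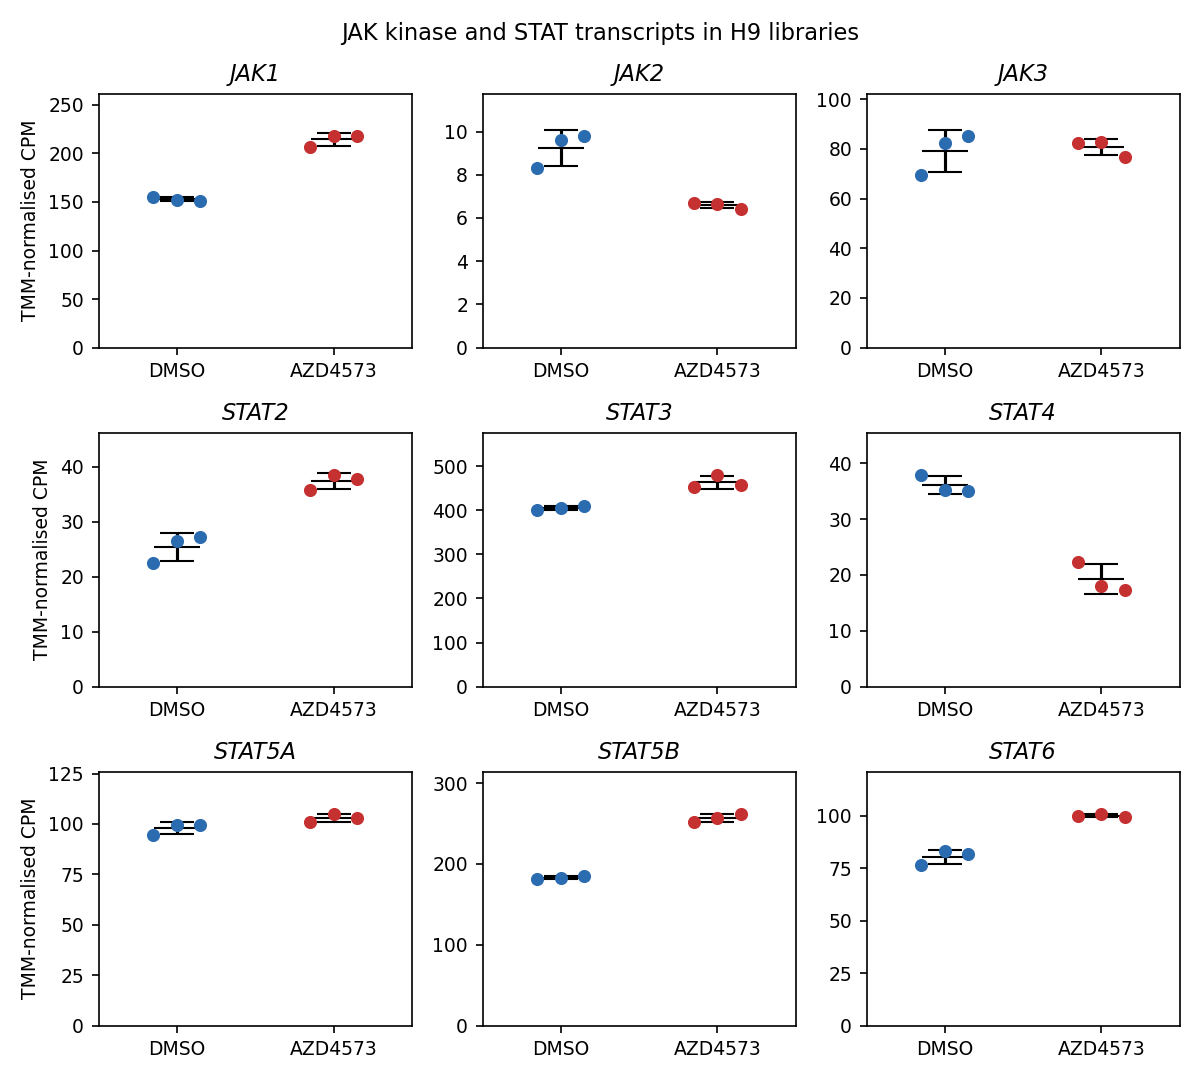
Each panel plots the TMM-normalised CPM of 1 member, from 0, with 1 point per library (blue DMSO, red AZD4573), the mean as a bar and the SD as whiskers (n = 3). STAT4 and JAK2 lie lower in every AZD4573 library, JAK3 overlaps between the groups, and the other members lie higher in every AZD4573 library under this scaling, although their fitted changes turn negative with mitochondrial scaling.

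STAT4, the factor through which interleukin 12 promotes the T helper 1 fate, was the member called lower. The gene (ENSG00000138378) covers chromosome 2 from 191029576 to 191151596 on the minus strand of GRCh38. Its transcripts were at 37.9, 35.2 and 35 CPM with DMSO and at 22.3, 18 and 17.3 CPM with AZD4573 (these and all later CPM values use TMM scaling). The highest treated library stayed well under the lowest control library. On the log2 scale the difference was -0.91 (standard error, SE, 0.0847, adjusted p = 3.6e-07), a level 1.88-fold lower. It ran from -1.03 to -0.84 with each library left out in turn, and was -1.01 with library size only and -1.64 with mitochondrial scaling. Of all genes tested, 16.1% had a log2 fold change at or below that of STAT4.

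The genes most like STAT4 over the 6 libraries, by Euclidean distance between log2 CPM values centred over the libraries, were TNFRSF11A, EXOC6 and SLC25A46. Their distances were 0.064, 0.071 and 0.073, and their log2 fold changes were -0.90, -0.93 and -0.88. TNFRSF11A encodes RANK, a receptor of the tumour necrosis factor family. EXOC6 encodes a subunit of the exocyst and SLC25A46 a protein of the outer mitochondrial membrane. With 2 conditions in the design, a small distance mainly reflects a like fold change, and it is given as a description.

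Among the kinases, JAK2 fell, JAK1 rose relative to the other genes and JAK3 gave no difference past the threshold. JAK2 (ENSG00000096968, chromosome 9, 4984390 to 5129948, plus strand) serves the receptors of interferon gamma, interleukin 12 and several blood-cell growth factors. It was the least abundant member, at 8.29, 9.61 and 9.8 CPM with DMSO and 6.68, 6.65 and 6.42 CPM with AZD4573. Every treated library was lower than every control library, and DMSO replicate 1 stood closest to them. The log2 fold change of -0.49 (SE 0.0927, adjusted p = 3.2e-04) is short of the fold threshold. JAK2 passed that threshold with library size only (-0.59) and with mitochondrial scaling (-1.23).

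JAK1 (ENSG00000162434, chromosome 1, 64833223 to 65067754, minus strand) is the kinase shared by the receptors of interferons, of the interleukin 6 family and of the common gamma chain cytokines. It was at 154.7, 152.2 and 150.9 CPM with DMSO and 207, 218 and 218 CPM with AZD4573. The spread within each group was small beside the gap between them. The log2 fold change was 0.49 (SE 0.0405, adjusted p = 1.1e-07) under TMM and -0.25 (adjusted p = 5.9e-04) with mitochondrial scaling, so that its direction depends on the scaling.

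JAK3 (ENSG00000105639, chromosome 19, 17824780 to 17848071, minus strand) pairs with the common gamma chain and is largely restricted to blood cells. Its values were 69.5, 82.4 and 85.2 CPM with DMSO and 82.4, 82.9 and 76.8 CPM with AZD4573, and the groups overlapped. DMSO replicate 1 lay below the other DMSO libraries. The log2 fold change was 0.03 (SE 0.0683, adjusted p = 0.696), it turned to -0.06 without DMSO replicate 1 and to -0.07 with library size only, and it was -0.71 with mitochondrial scaling, which is the median of all genes in that scaling.

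The other 5 STATs had positive log2 fold changes under TMM, 4 of them past the test, and negative ones with mitochondrial scaling. STAT2 (ENSG00000170581, chromosome 12, 56341597 to 56360203, minus strand), which joins IRF9 in the interferon-responsive complex ISGF3, showed the largest of them. It went from 22.4, 26.4 and 27.2 CPM with DMSO to 35.7, 38.5 and 37.8 CPM with AZD4573. Every treated library was higher, and DMSO replicate 1 was again the lowest. The log2 fold change was 0.56 (SE 0.072, adjusted p = 9.0e-06), just under the fold threshold, and -0.18 (adjusted p = 0.0445) with mitochondrial scaling. STAT2 was called higher in 2 of the fits that leave out a library, at 0.60 without DMSO replicate 3 and 0.59 without AZD4573 replicate 1.

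STAT3 (ENSG00000168610, chromosome 17, 42313324 to 42388540, minus strand) is the main factor downstream of interleukins 6, 10 and 21. It was the most abundant member, at 400, 404 and 410 CPM with DMSO and 452, 480 and 457 CPM with AZD4573. The groups did not overlap, but the gap was small, with a log2 fold change of 0.19 (SE 0.0403, adjusted p = 6.3e-04) that became -0.54 with mitochondrial scaling. STAT6 (ENSG00000166888, chromosome 12, 57095408 to 57132139, minus strand) carries interleukin 4 and 13 signals and promotes the T helper 2 fate. Its level was 76.5, 83.2 and 81.7 CPM with DMSO and 100, 101 and 99.6 CPM with AZD4573. The treated libraries lay close together above all controls, with a log2 fold change of 0.32 (SE 0.0457, adjusted p = 2.6e-05) under TMM and -0.42 with mitochondrial scaling.

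STAT5A and STAT5B, which transmit interleukin 2 and related growth signals, came apart from each other. STAT5B (ENSG00000173757, 42199176 to 42288633) went from 181, 183 and 185 CPM with DMSO to 252, 257 and 262 CPM with AZD4573, which is 0.49 on the log2 scale (SE 0.0386, adjusted p = 6.9e-08). STAT5A (ENSG00000126561, 42287547 to 42311943) was at 94.5, 99.4 and 99.6 CPM and then at 101, 105 and 103 CPM. The STAT5A groups did not overlap, but by so little that its log2 fold change of 0.07 (SE 0.0432, adjusted p = 0.135) did not pass the test. Mitochondrial scaling gave -0.25 for STAT5B and -0.66 for STAT5A.

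**Figure D2:**
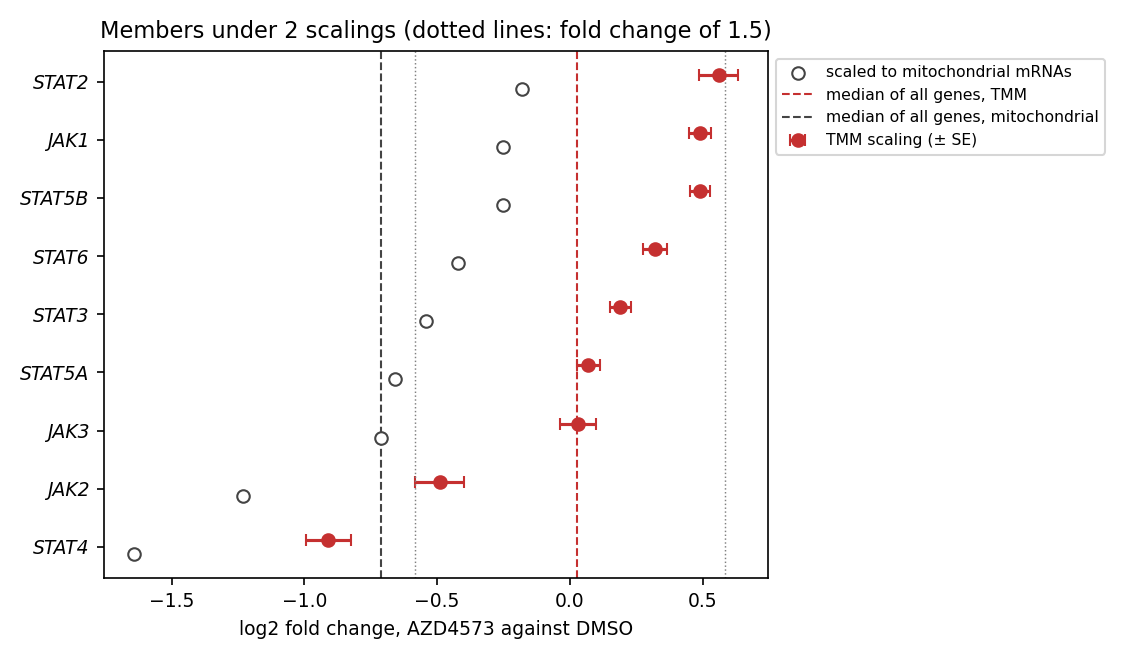
Log2 fold change of each member (x axis), as filled points with standard error under TMM scaling and as open points with mitochondrial scaling (no error drawn). Dashed lines give the median of all genes tested under each scaling, and dotted lines a fold change of 1.5. In both scalings STAT4 and JAK2 lie below the median of all genes and the other 7 members at or above it.

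A change of scaling shifts all genes by nearly the same amount, so values relative to the median of all genes are alike by construction and serve only to place the members. Relative to the median of all genes, STAT4 was at -0.94 under TMM and -0.93 with mitochondrial scaling, and JAK2 was at -0.51 in both. JAK1 and STAT2 stood at 0.47 and 0.54 under TMM and at 0.46 and 0.53 with mitochondrial scaling. With mitochondrial scaling all 9 members were lower at an adjusted p under 0.05 and 4 of them (STAT4, JAK2, JAK3 and STAT5A) were called lower, where 67.2% of all genes were lower by adjusted p and 53.4% were called lower. Amounts per cell were not measured, and which of the scalings is closer to them was not tested.

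Ratios between members within a library are free of any scaling. Each of the 6 ratios examined had groups that did not overlap, and each had p = 0.1 by the exact permutation test (two-sided, adjusted p = 0.1 over the 6 pairs), which is the smallest p that 3 against 3 libraries can give. Taken singly, 77.8% of all genes tested had groups that did not overlap, and the share over other pairs of genes was not examined. The 3 ratios among the kinases are not independent, since each follows from the others. JAK2 counts per JAK1 count were 0.0536, 0.0631 and 0.0649 with DMSO and 0.0323, 0.0305 and 0.0294 with AZD4573, a ratio 1.96-fold lower. The balance between these kinases, which share the interferon gamma receptor, thus differed by more than the spread between libraries. JAK3 per JAK1, the pair of the common gamma chain receptors, went from 0.449, 0.541 and 0.565 to 0.398, 0.38 and 0.352, which is 1.37-fold lower. JAK3 per JAK2 was 1.43-fold higher.

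STAT5A per STAT5B was 0.522, 0.542 and 0.539 with DMSO and 0.403, 0.409 and 0.391 with AZD4573, a ratio 1.33-fold lower. Since reads within the shared run are divided by estimate, the part of this difference that the division could hide or add was not tested. STAT3 per STAT5B, both on chromosome 17, was 1.23-fold lower, and STAT2 per STAT6, both on chromosome 12, was 1.19-fold higher.

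**Figure D3:**
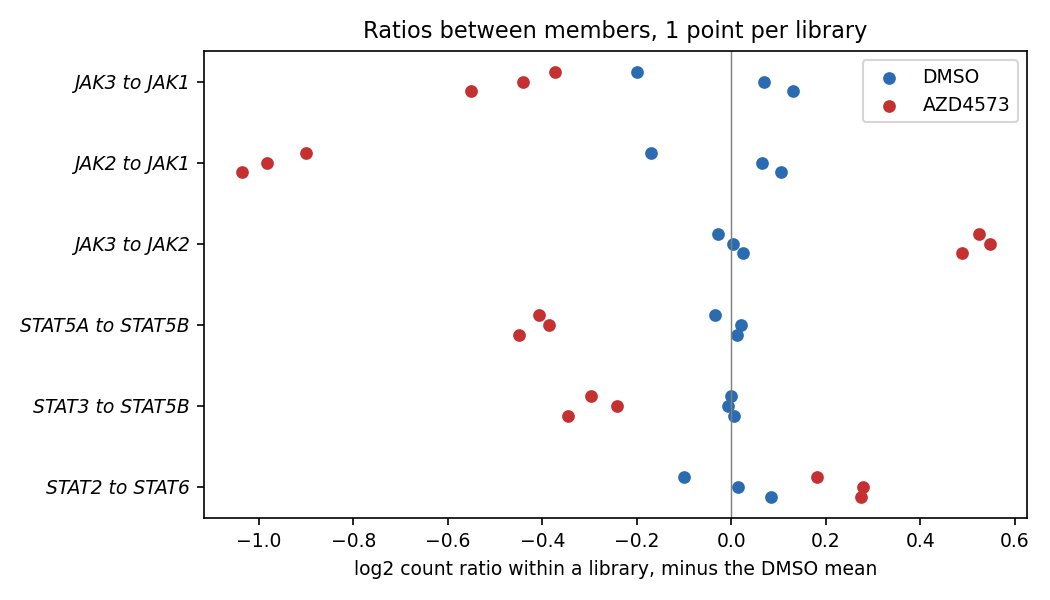
Log2 ratio of the counts of 2 members within each library, minus the mean of the DMSO libraries for that pair (x axis), with 1 point per library (blue DMSO, red AZD4573). JAK2 per JAK1 is shifted furthest, by -0.97, and no pair overlaps between the groups (other pairs of genes were not examined).

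Levels were compared between genes per kilobase of the canonical transcript (CPM divided by its length). With DMSO, STAT3 led at 82.2 ± 1.06 CPM per kilobase (SD, n = 3), followed by STAT5B (36 ± 0.369), JAK1 (30 ± 0.37), STAT5A (26 ± 0.76), STAT6 (20.3 ± 0.889), JAK3 (14.7 ± 1.56), STAT4 (14.1 ± 0.631), STAT2 (5.75 ± 0.583) and JAK2 (1.31 ± 0.118). JAK3 and STAT4 overlapped in their libraries, and all other neighbours in this order were apart. With AZD4573 the first 6 places were the same. STAT2 (8.47 ± 0.332) then came before STAT4 (7.5 ± 1.07), with overlapping libraries, and JAK2 was last at 0.938 ± 0.0201. When the merged length of all annotated exons was used in place of the canonical transcript, STAT5A (15.3 ± 0.449) and STAT5B (15.1 ± 0.155) overlapped with DMSO, so that their order rests on the transcript chosen. By that length STAT4 (4.17 ± 0.595) stayed before STAT2 (4.01 ± 0.157) with AZD4573, again with overlapping libraries, so the exchange of these places also rests on the length used, and JAK1 and STAT5A overlapped. STAT3 stayed first and JAK2 last by either length in both groups.

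**Figure D4:**
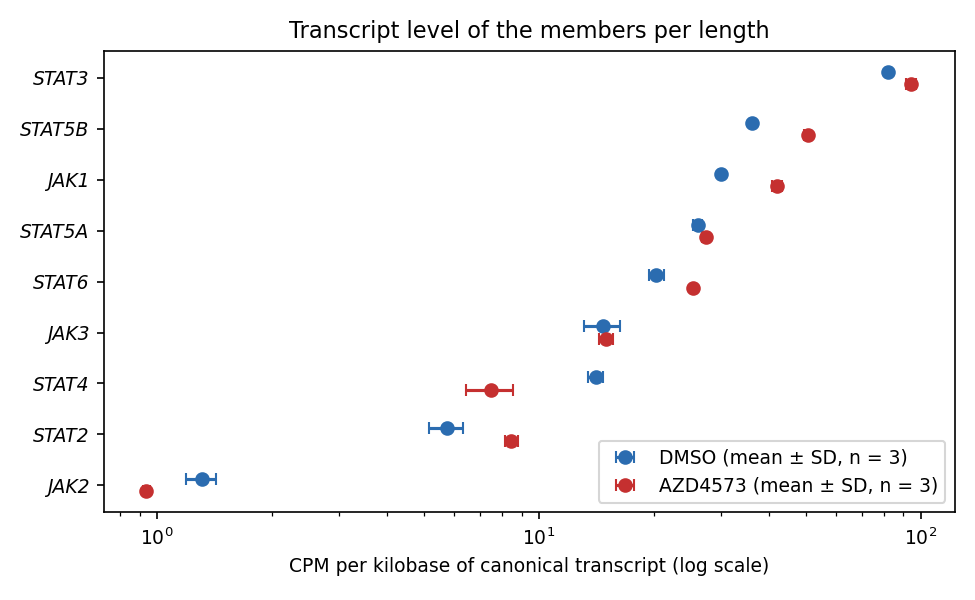
CPM per kilobase of canonical transcript (x axis, log scale) of each member, as mean and SD over 3 libraries (blue DMSO, red AZD4573). From STAT3 to JAK2 the levels run from 82.2 to 1.31 with DMSO, and with AZD4573 the mean of STAT4 lies below that of STAT2, their libraries overlapping (by merged exon length STAT4 stays above STAT2).

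The members also differ in gene structure. JAK1 has the longest span of the 9, 235 kb, followed by JAK2 with 146 kb and STAT4 with 122 kb. STAT5B, STAT3 and STAT6 span 89.5, 75.2 and 36.7 kb. STAT2 has the shortest span, 18.6 kb, followed by JAK3 with 23.3 kb and STAT5A with 24.4 kb. From the longest span to the shortest, the log2 fold changes under TMM were 0.49, -0.49, -0.91, 0.49, 0.19, 0.32, 0.07, 0.03 and 0.56. Whether span bears on the change was not tested.

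Because the study concerns GATA-3, the 250 bases before the RefSeq start of each gene (GRCh38.p14) were searched on both strands for the letters AGATAA, known from sites of the GATA family, and for TTCNNNGAA, the palindromic core of STAT binding sites. All 9 members had an entry, and only 1 start per gene was searched. The GATA letters were found before 1 member, STAT6, and in 9.37% of 27305 promoters of this length. The STAT letters were found before 0 members and in 6.78% of the promoters. The STAT6 match is shown with its motif in capitals because it is the only one among the members. The motif begins 166 bases before the start that was searched, on the minus strand of chr12:57110438-57110467. This window lies inside the GENCODE span of STAT6 (57095408 to 57132139), downstream of its outermost annotated start.
STAT6: agataggggttgAGATAAgcgagtttaggc

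A match is a description of letters and says nothing of binding.

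The genes around the kinases and STATs were examined through 5 lists written from general knowledge. Beside genes taken by rule from each list, some chains and cofactors are named that were chosen after their values were seen (IFNAR1, IFNAR2, IFNGR2, IL2RA, IL2RB, IL2RG, IL4R, IL10RA, IL10RB, IL21R, IL12RB1, IL12RB2, IL4, IL5, IL10, SOCS1, CREBBP, EP300, PIM1, PIM2 and PIM3). The counts below stand beside 23.7% of all genes tested called lower and 22.7% called higher, and no list was tested as a set. Of 32 receptor chains that signal through JAKs, 25 were tested, with 11 called lower and 3 higher and a median log2 fold change of -0.44. Of 19 cytokines, 11 were tested, with 6 called lower and 2 higher (median -1.15). Among 19 adaptors and cofactors, all tested, 9 were called lower and 2 higher (median -0.51). Among 20 negative regulators, 19 tested, the calls were 6 lower and 3 higher (median -0.34). The 23 STAT target genes (21 tested) were divided, with 8 called in each direction and a median of 0.22 that turned to -0.52 with mitochondrial scaling. In that scaling the other 4 medians were -1.18, -1.89, -1.25 and -1.08, in the same order. The receptors called lower became 19 and the adaptors 15, where 53.4% of all genes were called lower.

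**Figure D5:**
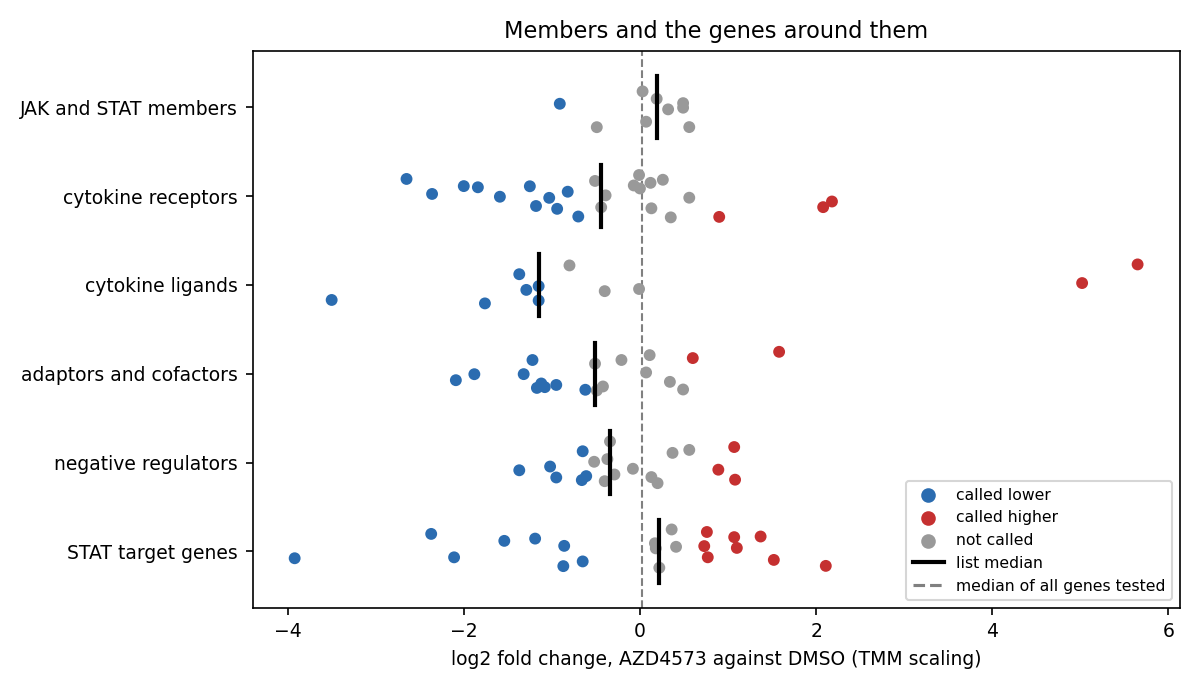
Log2 fold change under TMM scaling (x axis) of the members and of the tested genes of 5 lists, 1 point per gene, coloured by call (fold change of at least 1.5 and adjusted p under 0.05), with the list median as a black bar and the median of all genes as a dashed line. The members lie between -0.91 and 0.56, within the range of every list.

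Among interferon receptors, chains of both types fell. The type I interferon receptor chains IFNAR1 and IFNAR2 went from 74.3 ± 3.19 to 32.9 ± 2.05 CPM and from 55.4 ± 3.39 to 27.2 ± 0.827 CPM (SD, n = 3), with log2 fold changes of -1.18 and -1.03. IRF9, the partner of STAT2, went from 17.9 ± 0.759 to 7.16 ± 1.01 CPM (log2 fold change -1.32), whereas STAT2 itself was at 0.56 under TMM. For interferon gamma, the ligand-binding chain IFNGR1 went from 20.8 ± 1.11 to 5.24 ± 1.25 CPM (-2.00) and IFNGR2 had a log2 fold change of -0.51, close to that of JAK2. In this axis the receptors, IRF9 and JAK2 were lower, while JAK1 and STAT2 were higher under TMM and lower with mitochondrial scaling.

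The chains of the interleukin 2 receptor, which signals through JAK1, JAK3 and STAT5, differed from each other. The beta chain IL2RB had a log2 fold change of -0.44 (adjusted p = 2.0e-06), the common gamma chain IL2RG one of 0.56 (adjusted p = 3.9e-08) and the alpha chain IL2RA one of -0.01 (adjusted p = 0.959). IL2RG went from 345 ± 11.6 to 509 ± 12.7 CPM (SD, n = 3) and had a log2 fold change of -0.18 with mitochondrial scaling. The interleukin 4 receptor chain IL4R, which recruits STAT6, was at 105 CPM in both groups under TMM (log2 fold change 0.00, adjusted p = 0.949). With mitochondrial scaling IL4R and IL2RA were both at -0.74, near the median of all genes (-0.71).

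Under TMM scaling the receptor chains upstream of STAT3 named here did not move in 1 direction, but all were negative with mitochondrial scaling. The signal-transducing chain IL6ST, shared by the interleukin 6 family, went from 12.3 ± 0.73 to 3.43 ± 0.0846 CPM (SD, n = 3, log2 fold change -1.84), and IL10RA from 27.7 ± 0.995 to 15.7 ± 0.353 CPM (-0.82). The second chain of the interleukin 10 receptor, IL10RB, was at 0.12 (adjusted p = 0.178, edgeR) under TMM. IL21R, the interleukin 21 receptor, was at 0.35 (adjusted p = 0.00132, edgeR) under TMM. With mitochondrial scaling IL6ST, IL10RA, IL10RB and IL21R were at -2.58, -1.56, -0.61 and -0.40. IL12RB1, a chain of the interleukin 12 receptor at 6.33 CPM with DMSO, had a log2 fold change of -0.07 (adjusted p = 0.577, edgeR) under TMM. It was at -0.81 with mitochondrial scaling. IL12RB2 was called higher at a low level, from 0.133 to 0.57 CPM. The erythropoietin receptor EPOR, which uses JAK2, showed the largest fall among the receptors at 1 CPM or more, from 4.79 ± 0.106 to 0.767 ± 0.215 CPM (-2.65).

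The cytokines named by rule among those called lower were OSM, which signals through IL6ST (44.1 ± 1.15 to 17.1 ± 0.577 CPM, SD, n = 3, log2 fold change -1.37), IL2 (2.58 to 1.06 CPM, -1.29) and IFNG (1.09 to 0.493 CPM, -1.15). The more abundant IL10 had the same log2 fold change as IFNG, -1.15, from 40.1 ± 1.07 to 18.1 ± 1.31 CPM, while IFNG was at -0.95 without DMSO replicate 1. IL13, a T helper 2 cytokine, was called higher, with 4, 0 and 3 counts under DMSO and 60, 62 and 57 under AZD4573. These control counts are too few for a fold. Below 1 CPM in both groups, the T helper 2 cytokine IL5 was also called higher, with 1, 0 and 0 counts and then 11, 22 and 21, and IL4 was called lower, with 41, 27 and 38 counts and then 10, 6 and 7.

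Negative regulators moved in both directions. PTPN2, a phosphatase of JAK1, JAK3 and STATs, went from 39.5 ± 1.01 to 15.2 ± 1.48 CPM (SD, n = 3, log2 fold change -1.37), the SUMO ligase PIAS4 from 73.9 to 36.6 CPM (-1.02) and SOCS2 from 20.6 to 10.6 CPM (-0.95). PTPRC, which encodes the phosphatase CD45, rose from 413 ± 1.34 to 873 ± 43.7 CPM (1.08), CISH from 265 to 557 CPM (1.07) and the adaptor SH2B3 from 152 to 282 CPM (0.89). These 3 stayed positive with mitochondrial scaling, at 0.34, 0.33 and 0.15. SOCS1, an inhibitor of JAK activity, had 0 counts in every library, which allows up to 0.0392 CPM in the deepest of them.

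Of the adaptors, IRS1 (-2.09) and STAM (-1.88) fell most, STAM from 39.9 ± 1.08 to 10.8 ± 0.794 CPM (SD, n = 3). The acetyltransferases CREBBP and EP300, which act with STATs at promoters, had log2 fold changes of -1.22 and -1.08. The docking protein GAB2 rose from 68.2 ± 1.2 to 204 ± 16.6 CPM (1.58, and 0.84 with mitochondrial scaling). SH2B1 was at 0.60 under TMM and at -0.14 with mitochondrial scaling.

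Targets of STATs were divided. NFIL3 went from 6.38 ± 0.401 to 0.42 ± 0.106 CPM (SD, n = 3, log2 fold change -3.92), PRDM1 from 4.48 to 0.864 CPM (-2.37) and TBX21, the T helper 1 master factor, from 1.98 to 0.463 CPM (-2.11). BCL6, a repressor that opposes PRDM1, rose from 12 ± 0.45 to 51.9 ± 4.51 CPM (2.11, and 1.37 with mitochondrial scaling), and BCL2L1, which encodes the survival protein BCL-xL, had a log2 fold change of 1.37 (0.63 with mitochondrial scaling). CCND1 rose from 0.402 to 1.16 CPM (1.52). The kinases PIM1 and PIM2 were at -1.19 and -0.87 and PIM3 at 0.76, so that members of this family had opposite signs, although PIM3 was at 0.02 with mitochondrial scaling.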

How the data were processed

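RNA-seq of H9 cells was analysed from 6 libraries, 3 with DMSO and 3 with AZD4573, grouped by their labels. The authors trimmed reads with Cutadapt 2.3, aligned them to GRCh38 with STAR 2.7.8a, ran RSEM 1.3.3 and deposited its expected counts for each gene, which were rounded to whole numbers here. Versions are from the submitters' processing notes. RSEM was run with default settings, so strand was not used. All 6 count columns were used. The deposited counts also held 5 rows of reporter sequences (0 counts), which were left out and are not among the 61541 genes. Genes passing filterByExpr (minimum count 10) were tested by edgeR's quasi-likelihood test (edgeR 4.0.16, R 4.3.3, TMM factors, Benjamini-Hochberg adjustment over 17678 genes). Calls needed both a 1.5-fold change and an adjusted p under 0.05. Total counts ran from 52101868 to 76571157, and intervals and floors cover counting error only.

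The members and all lists were chosen with earlier results of these data known. Some marker genes and the sums that hold them are not reported here. In each of 5 pathway lists, a rule named up to 3 genes with the largest fall and up to 3 with the largest rise. These had to be called, with at least 1 CPM in the higher group and groups apart. Also named were genes of the marker lists given as detected or at 0. The 3 genes with a symbol nearest to the member with the largest absolute log2 fold change were named too. Genes listed above as chosen after their values were seen fall outside this rule. The recomputed values of 33 genes given below do not cover them. Ratios between members were log2 ratios of the rounded counts, tested by an exact two-sided permutation test (SciPy 1.17.1, Python 3.11.15). The distance used log2 of CPM plus 0.5. Gene positions, transcripts and lengths were taken from GENCODE 44 and promoters from RefSeq (GRCh38.p14).

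Alternatives were DESeq2 1.42.0, RLE size factors, library size only, scaling to 13 mitochondrial mRNAs, no filter, at least 10 counts in every library, a replicate block, a fold change of at least 2, leaving out each library and, for ratios, 0.5 added to each count. On data drawn with known answers, edgeR recovered 200 of 200 genes changed 2-fold among 17678, with 1 false call, and DESeq2 recovered 199 with 0 false calls. The changed genes were split evenly between up and down, none had few counts, and all genes had the same spread. In the real data 4191 genes were called lower and 4012 higher, so the draw cannot show how accurate calls or scaling are there. Within groups, the chi-square of library pairs over genes was 5.59 to 21.2 times its degrees of freedom, so none was a repeat deposit.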

Additional observations from a re-analysis of the deposited data

How the results depend on the processing

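Of 428 recomputed values of the 33 genes named as members or by the rule on lists, in 415 the direction and the side of the adjusted p threshold stayed the same, and 15 changed their call, which also needs the fold of 1.5. Of these 15, 7 came with mitochondrial scaling, and the other 8 belonged to JAK2 (-0.59 with library size only), STAT2 (0.60 with at least 10 counts in every library, 0.60 and 0.59 with a library left out) and SH2B1 (0.50 with library size only, 0.56 without a filter, 0.55 without DMSO replicate 1 and 0.58 without AZD4573 replicate 2). With mitochondrial scaling the direction turned for JAK1 (-0.25), JAK3 (-0.71), STAT2 (-0.18), STAT3 (-0.54), STAT5A (-0.66), STAT5B (-0.25), STAT6 (-0.42), SH2B1 (-0.14) and the median of the STAT targets (-0.52), and the calls became 9433 genes lower and 1769 higher, 4 members lower, 19 receptors lower, 13 negative regulators lower and 0 higher, 15 adaptors lower and 1 higher, and 3 STAT targets higher. JAK3 was at -0.07 with library size only, -0.01 without a filter and between -0.06 (without DMSO replicate 1) and 0.08 with a library left out, and STAT5A was at -0.03 with library size only and at 0.11 (adjusted p = 0.029, edgeR) with at least 10 counts in every library. Library size only called 2 members lower and 1 adaptor higher, no filter 1 adaptor higher, and the stricter count minimum 1 member and 0 cytokines higher. A fold change of at least 2 gave 2450 genes lower and 2643 higher, 0 members lower, 2 negative regulators lower, 1 adaptor higher, and 5 STAT targets lower and 5 higher. Leaving out 1 library gave 0 to 1 members higher (STAT2, without DMSO replicate 3 or AZD4573 replicate 1) and 1 to 2 adaptors higher (1 without DMSO replicate 1 or AZD4573 replicate 2). The causes were not tested, apart from the fold threshold, which can only remove calls.

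The labels do not say whether same-numbered libraries belong together. Their deviations from the group means showed little correlation (-0.00769, 0.0894 and -0.0501), which cannot tell whether they were prepared together. With a replicate block, 4162 genes were lower and 3926 higher, beside 4191 and 4012 without it, and the members' calls were 1 lower and 0 higher in both. Ratios within libraries cannot reach p under 0.1 in this design, or 0.2 with a library left out.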
